A study of Mus musculus with 6 samples.

Results

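Long intergenic noncoding RNAs (lincRNAs) are transcripts without a recognised protein from genes that lie between coding genes. The lincRNAs described here were the rows of the gene count table with the biotype lincRNA and a raw count of at least 50 in each of 5 libraries, Ctrl shRNA replicates 1 and 3 and all 3 knockdown replicates. The rule found 132 of 5559 lincRNA rows, in a table of 54532 rows. Of all lincRNA rows, 1699 had a count in some library and 415 were tested in the fit across all genes, with all 132 members among them. The members were thus chosen by their raw counts in these 5 libraries, which removed genes silent in either group, and Ctrl shRNA replicate 2 had no part in the choice.

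RNA-seq had been made from MLE12 cells, an established mouse lung epithelial line of the strain C57BL/6J per the labels, with alveolar type 2 features. The Ctrl shRNA group (n = 3) received a lentivirus without a targeting insert at a multiplicity of infection (MOI) of 50. The Idh3α shRNA + Slc25a1 shRNA group (n = 3), called knockdown below, received 2 lentiviruses at an MOI of 50 each. By these stated doses its total dose of virus was higher than that of the control. The sources used here do not say whether the control dose was raised to match. A difference in dose and the knockdown cannot be told apart. Virus stayed on the cells of both groups for 16 h before a wash, and 80 h of culture followed. Idh3α is a subunit of the mitochondrial isocitrate dehydrogenase that consumes citrate-derived isocitrate, and Slc25a1 carries citrate out of mitochondria, so the comparison asked which transcripts differ when citrate use and export are both reduced. The sources used here do not say whether the replicates were separate cultures, so the p-values cover only the spread between these samples.

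A lincRNA can act in the nucleus as a scaffold, as Neat1 does in paraspeckles, Malat1 in nuclear speckles and Xist on the inactive X chromosome. Other lincRNA genes matter for what they hold: small nucleolar RNAs (snoRNAs) are cut from the introns of their hosts, and microRNAs from the primary transcripts of theirs. Many annotated lincRNAs have no known role, and some carry copies of coding sequence or of repeats.

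Sequences are shown for members called in the comparison below other than Neat1, or that share sequence with one. They are also shown for Mir155hg, the other member in the list of microRNA hosts used below. Mir17hg (chr14:115042879-115046727, plus strand, GRCm38) is the primary transcript of 6 microRNAs that repress their targets through the seed, bases 2 to 8, shown in capitals. The mature sequences from RefSeq (GRCm38.p6) lie between bases 115043684 and 115044496 of chromosome 14 and fall into 4 seed groups, and miR-155-5p, from the member Mir155hg on chromosome 16, has a seed of its own.
mmu-miR-17-5p: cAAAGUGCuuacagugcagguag
mmu-miR-20a-5p: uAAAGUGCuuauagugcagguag
mmu-miR-18a-5p: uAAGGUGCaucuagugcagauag
mmu-miR-19a-3p: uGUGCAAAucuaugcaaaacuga
mmu-miR-19b-3p: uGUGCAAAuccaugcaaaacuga
mmu-miR-92a-3p: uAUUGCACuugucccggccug
mmu-miR-155-5p: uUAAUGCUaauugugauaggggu
The libraries counted the long host transcripts only, and the mature microRNAs were not measured.

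The members Gm26809, Gm20186 and Gm12840 share sequence with each other although Gm12840 lies on chromosome 4 and the other pair on chromosome 6. The first 119 bases of Gm12840 are shown beside bases 24 to 142 of a Gm20186 transcript, from the GENCODE M21 transcripts, with the 1 base that differs in capitals.
Gm12840: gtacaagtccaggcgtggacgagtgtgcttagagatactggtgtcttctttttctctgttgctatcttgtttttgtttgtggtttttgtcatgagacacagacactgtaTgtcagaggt
Gm20186: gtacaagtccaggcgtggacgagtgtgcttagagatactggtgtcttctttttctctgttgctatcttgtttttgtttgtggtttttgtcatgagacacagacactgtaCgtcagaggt
Gm26809, on the opposite strand, holds the complement of the printed Gm20186 bases without a difference. The stretch was unbroken in the genome for Gm20186 (chr6:18846623-18846741, minus strand) and split by an intron for Gm12840 (chr4:117700188-117700415, plus strand). The best alignment of Gm12840 with Gm20186 ran over 628 bases at 97.5% identity, and that with Gm26809 over 513 bases at 97.1%.

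Gm10076, a single-exon member of 384 bases on chromosome 14, is a near copy of Rpl41, which encodes a protein of the large ribosomal subunit. Their alignment ran over 383 bases at 99.5% identity. The 26 codons of Rpl41, stop included (GRCm38 chr10:128548387-128548960, minus strand, introns included), stand without a difference in Gm10076 (chr14:105681869-105681946, plus strand), where no intron interrupts them.
Rpl41 and Gm10076: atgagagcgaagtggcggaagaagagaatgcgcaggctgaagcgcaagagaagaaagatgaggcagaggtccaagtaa
Counts of such near-identical genes are uncertain, since reads could be split between them or dropped in a way the sources used here do not give.

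Total counts ran from 27273502 to 28535653 per library, and Ctrl shRNA replicate 2 stood apart from the other libraries. Its TMM normalisation factor was 0.711 against 1.05 to 1.09, its mitochondrially encoded share was 6.49% against 1.57 to 1.80%, and 546 lincRNA rows had a count against 863 to 1195. Of 14 epithelial markers, 9 had a mean count of at least 10, and the summed level ran from 861 to 922 CPM (counts scaled to a common library total with the TMM factors) in the controls and 823 to 879 CPM in the knockdown. Sftpd, a surfactant protein of type 2 cells, was at 0 in all 6 libraries. Without Ctrl shRNA replicate 2, 11 epithelial markers were tested in edgeR, 1 was called lower and 1 higher, and with all samples 0 of 9 were called. Lower was surfactant protein Sftpc (44.1, 97.3 and 50.9 CPM in the controls, 35.9, 28.5 and 27.2 CPM in the knockdown, adjusted p = 0.0438, and 0.315 with all samples). Higher was the transcription factor Etv5, at 24.8 CPM on average in the controls and 38.0 CPM in the knockdown (adjusted p = 0.0312, and 0.166 with all samples). The summed level of 4 fibroblast markers, mostly Dcn, was 1233 CPM in Ctrl shRNA replicate 2 and 317 to 377 CPM elsewhere, and the part of these differences in the results was not tested. Leukocyte markers (5 genes, Ptprc and Adgre1 at 0) summed to 1.84 to 1.95 CPM in the controls and 2.47 to 2.76 CPM in the knockdown, mostly Cd68, which did not pass the test in either fit, and endothelial markers (3 genes) to at most 0.989 CPM. In bulk RNA, fewer cells of a type and less RNA per cell cannot be told apart. Slc25a1 had 103, 98.7 and 108 CPM in the 3 controls and 68.9, 69.6 and 63.0 CPM in the 3 knockdown libraries, in replicate order (edgeR adjusted p = 0.104, and 0.00649 without Ctrl shRNA replicate 2). Idh3a had 79.8, 137 and 93.0 CPM and 58.5, 57.9 and 55.5 CPM (adjusted p = 0.254, and 0.0142 without that replicate). Neither target passed the test with all samples, and both did without that replicate, so the comparisons below are given both ways.

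With all 6 samples, 0 of the 132 lincRNAs were higher and 0 lower at an adjusted p under 0.05 in edgeR's quasi-likelihood test, where 0.0588% and 0.00653% of the 15307 genes tested were called. At an unadjusted p under 0.05 the counts were 6 higher and 8 lower, with 7.47% and 6.65% of all genes tested. DESeq2 called 4 higher, Gm26809, Gm12840, Gm20186 and Mir17hg, and 1 lower, Gm10076, against 1.64% and 1.07% of the genes it tested. Without Ctrl shRNA replicate 2, edgeR called 3 higher, Gm26809, Gm12840 and Mir17hg, and 2 lower, Gm10076 and Neat1, against 1.11% and 0.675% of 15709 genes tested. These calls made up 2.27% and 1.52% of the members.

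Fits added after seeing the data called more. DESeq2 without Ctrl shRNA replicate 2 called 5 higher and 4 lower of 130 members tested, against 4.12% and 2.78% of all genes it tested. limma with sample quality weights, which keeps all samples and weights each by its fit, called 7 higher and 8 lower, against 8.67% and 6.34%. Among 10921 protein-coding genes that met the same count rule, edgeR called 1.5% higher and 0.916% lower without Ctrl shRNA replicate 2. The biological coefficient of variation was 0.263 with all samples and 0.102 without that replicate.

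The median log2 fold change of the members was -0.07, with 59 of 132 above 0, beside a median of -0.01 over all genes tested. It was -0.04 without Ctrl shRNA replicate 2, with 60 of 132 above 0. With library size alone as the scaling, the median over all genes moved to 0.16 and that of the members to 0.13, and 87 of 132 members were then above 0, against 68.7% of all genes. Groups did not overlap in CPM for 13 members that were higher and 10 that were lower in the knockdown, against 14.7% and 10.7% of all genes tested, and without Ctrl shRNA replicate 2 for 20 and 13, against 20.4% and 17.5%.

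**Figure D1:**
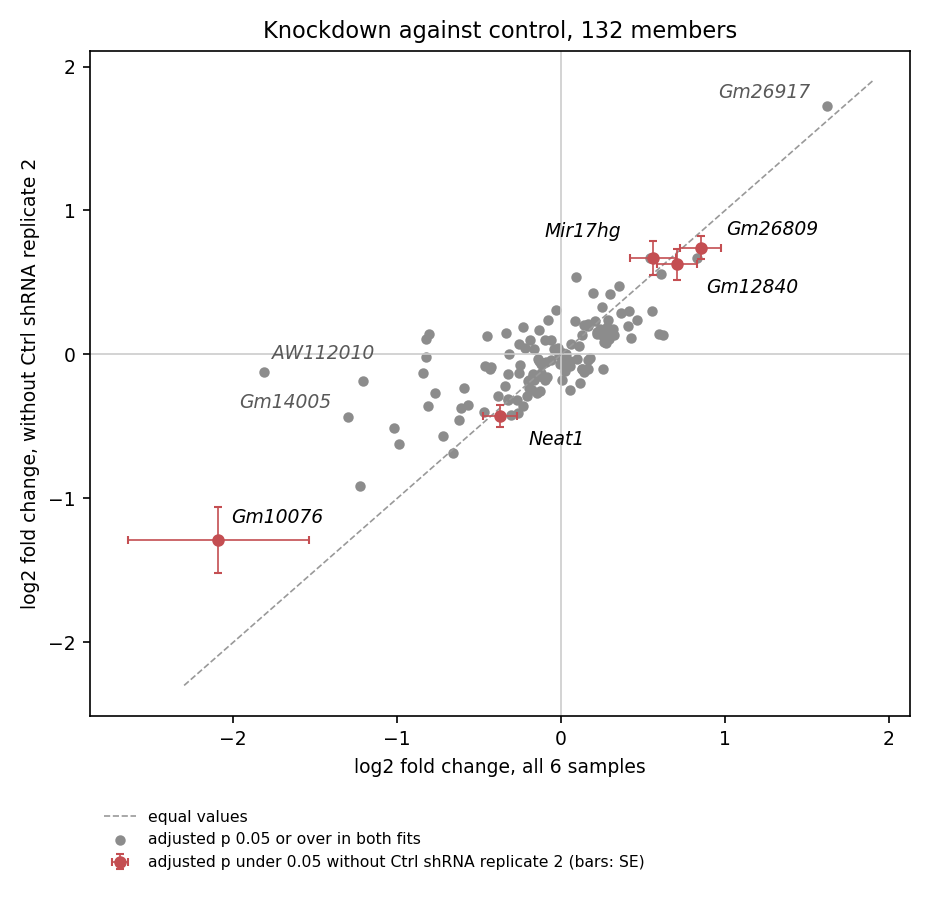
Log2 fold change of knockdown against control for the 132 members, with all 6 samples (x axis) and without Ctrl shRNA replicate 2 (y axis). The 5 members called without that replicate are drawn with SE bars in both directions. Gm10076 shifts from -2.09 to -1.29 and AW112010 from -1.82 to -0.12, while Gm26809, Gm12840, Mir17hg and Neat1 stay near the line of equal values.

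Gm26809, a lincRNA with no known role (chr6:18844220-18847360, plus strand, ENSMUSG00000097815), was the most abundant of the 3 members called higher in the knockdown. In replicate order, its level was 228, 179 and 224 CPM in the controls and 394, 348 and 397 CPM in the knockdown, and values of other members follow the same order. All 3 knockdown libraries were above all 3 controls, with the lowest control in replicate 2. The log2 fold change was 0.85 ± 0.12 (SE) with an adjusted p of 0.141, and 0.74 ± 0.08 (SE) with 0.00656 once replicate 2 was left out. DESeq2 gave an adjusted p of 3.00e-05 with all samples. Over the alternatives it ran from 4.14e-16 to 0.645, and such ranges here and below include the fits added after seeing the data.

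Gm20186 (chr6:18845910-18848207, minus strand) overlaps Gm26809 on the opposite strand by 855 exonic bases, and Gm12840 (chr4:117700188-117700923, plus strand) shares the sequence shown above. Gm12840 was at 20.3, 16.7 and 18.8 CPM in the controls and 30.4, 27.3 and 33.5 CPM in the knockdown, and again the groups were apart. Its log2 fold change was 0.71 ± 0.12 (SE) with an adjusted p of 0.178, and 0.63 ± 0.11 (SE) with 0.0321 without Ctrl shRNA replicate 2. For Gm20186, the levels were 4.49, 3.04 and 4.11 CPM and 7.22, 6.53 and 6.98 CPM, with a log2 fold change of 0.83 ± 0.19 (SE) (adjusted p = 0.245) and 0.67 ± 0.14 (SE) (adjusted p = 0.0619) without the replicate. The order of the 6 libraries was nearly the same for the 3 genes. The raw count of Gm20186 was 1.69 to 1.97% of that of Gm26809 in every library, and the count of Gm12840 was 7.72 to 9.32% of it. Whether strand was used in counting is not given in the sources used here, so reads from the bases shared by Gm26809 and Gm20186 cannot be told apart, and the 3 members are not independent evidence of a difference.

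The coding gene nearest to Gm26809 and Gm20186 is Lsm8, whose product is part of a ring that binds the U6 spliceosomal RNA. Gm20186 starts 372 bases from it on the other strand. Lsm8 was at 319 ± 301 CPM (SD, n = 3) in the controls and 87.1 ± 15.3 CPM in the knockdown, a control mean carried by replicate 2. Its log2 fold change was -1.87 ± 0.67 (SE) with all samples and -0.77 ± 0.24 (SE) without that replicate, and it did not pass the edgeR test with (adjusted p = 0.344) or without (adjusted p = 0.14) Ctrl shRNA replicate 2.

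Mir17hg was at 7.07, 9.41 and 7.91 CPM in the controls and 12.3, 11.3 and 12.4 CPM in the knockdown. Its highest control, replicate 2, was below the lowest knockdown library. The log2 fold change was 0.56 ± 0.14 (SE) with an adjusted p of 0.279, and 0.67 ± 0.12 (SE) with 0.0347 without Ctrl shRNA replicate 2. DESeq2 placed it at an adjusted p of 0.0467, and the range over the alternatives was 0.0028 to 0.675.

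Pvt1, a lincRNA of 21 exon blocks that lies 47612 bases from the growth regulator Myc on chromosome 15, was at 8.50, 9.97 and 6.80 CPM in the controls and 11.4, 13.4 and 11.9 CPM in the knockdown. Its groups did not overlap, but the test was not passed with all samples (log2 fold change 0.54 ± 0.17 (SE), adjusted p = 0.327) or without Ctrl shRNA replicate 2 (0.67 ± 0.14 (SE), adjusted p = 0.0607). Myc itself was at 64.9 ± 2.18 CPM (SD, n = 3) in the controls and 103 ± 12.3 CPM in the knockdown, and passed the test only without the replicate (log2 fold change 0.64 ± 0.10 (SE), edgeR adjusted p = 0.0211, against 0.144 with all samples).

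The other members with the highest log2 fold changes among those with groups apart were Gm20045 and Gm17275, both without a known role. Gm20045 was at 3.75, 3.29 and 3.45 CPM in the controls and 4.44, 5.80 and 5.80 CPM in the knockdown (log2 fold change 0.61 ± 0.18 (SE), adjusted p = 0.313). Gm17275, which overlaps the histone gene H3f3a, was at 5.75, 2.83 and 5.02 and 6.28, 6.82 and 6.98 CPM (log2 fold change 0.55 ± 0.27 (SE), adjusted p = 0.372). Without Ctrl shRNA replicate 2, the lowest library for Gm17275, its log2 fold change was 0.30 ± 0.14 (SE), and neither member passed the test in either fit.

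Neat1 (chr19:5824708-5845478, minus strand), the architectural RNA of paraspeckles, was the more abundant of the 2 members called lower. It was at 722, 623 and 649 CPM in the controls and 506, 489 and 544 CPM in the knockdown, a mean of 665 ± 51.4 against 513 ± 28.1 CPM (SD, n = 3). Every knockdown library was below every control. The log2 fold change was -0.37 ± 0.10 (SE) with an adjusted p of 0.305, and -0.43 ± 0.08 (SE) with 0.0387 without Ctrl shRNA replicate 2. In DESeq2 the adjusted p was 0.0589 with all samples, and over the alternatives it ran from 4.54e-05 to 0.765.

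Gm10076, the near copy of Rpl41 printed above, was at 13.9, 54.4 and 19.4 CPM in the controls and 5.75, 5.57 and 9.17 CPM in the knockdown. Ctrl shRNA replicate 2 was far above the other controls, and the 3 knockdown libraries were below all of them. The log2 fold change moved from -2.09 ± 0.55 (SE) (adjusted p = 0.288) to -1.29 ± 0.23 (SE) (adjusted p = 0.0336) when replicate 2 was left out. Rpl41 was at 755, 5865 and 1174 CPM and 741, 537 and 725 CPM in the same libraries, with its highest level in Ctrl shRNA replicate 2 too. Its log2 fold change was -1.96 ± 0.78 (SE) (adjusted p = 0.352) with all samples and -0.54 ± 0.19 (SE) (adjusted p = 0.171) without that replicate. The raw count of Gm10076 was 1.84, 0.928 and 1.65% of that of Rpl41 in the controls and 0.775, 1.04 and 1.27% in the knockdown. The share in Ctrl shRNA replicate 2 lay within the range of the knockdown.

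Lockd, transcribed from a gene 3579 bases from the cell cycle inhibitor gene Cdkn1b, was at 17.9, 38.9 and 23.3 CPM in the controls and 13.3, 12.1 and 14.9 CPM in the knockdown. Its groups were apart, with replicate 2 the highest control, and its log2 fold change was -0.99 ± 0.29 (SE) (adjusted p = 0.315) with all samples and -0.63 ± 0.14 (SE) (adjusted p = 0.0698) without that replicate. Cdkn1b did not pass the test in either fit (adjusted p = 0.439 and 0.161). For Gm14005, next to the apoptosis regulator gene Bcl2l11, the levels were 11.7, 50.5 and 16.9 and 10.9, 9.62 and 11.5 CPM, and the log2 fold change went from -1.30 ± 0.54 (SE) to -0.43 ± 0.16 (SE) without replicate 2. Lhx1os, which starts 125 bases from the developmental regulator Lhx1, was at 5.59, 15.1 and 7.46 and 4.81, 4.22 and 4.79 CPM (log2 fold change -1.02 ± 0.37 (SE), and -0.51 ± 0.17 (SE) without the replicate). 4930558J18Rik was at 3.71, 5.87 and 4.95 and 2.59, 2.74 and 3.47 CPM (log2 fold change -0.72 ± 0.24 (SE), and -0.57 ± 0.21 (SE)). These 4 members did not pass the test in either fit. Ctrl shRNA replicate 2 was the highest control for each of them.

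**Figure D2:**
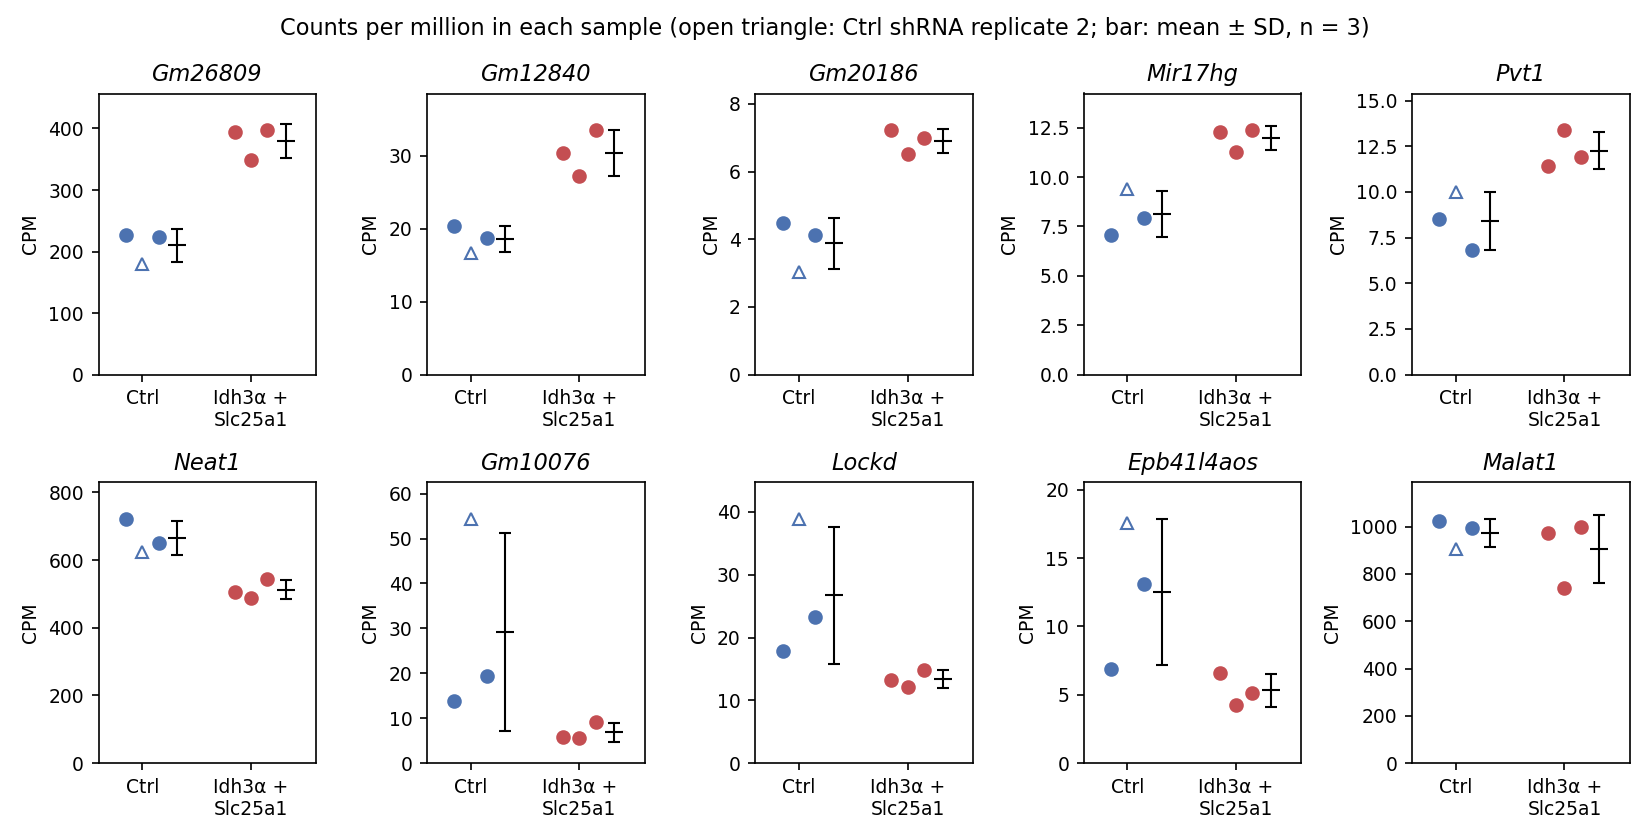
CPM (y axis, from 0) in each of the 6 samples for 10 members, with Ctrl shRNA replicate 2 as an open triangle and the mean ± SD (n = 3) as a bar beside each group. The groups are apart in every panel except Malat1. Replicate 2 is the highest control of Gm10076, Lockd and Epb41l4aos, at 54.4, 38.9 and 17.6 CPM, and of Mir17hg and Pvt1, at 9.41 and 9.97 CPM.

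Ctrl shRNA replicate 2 held 93983 counts of the members, 0.338% of its total, against 0.454 to 0.502% in the other libraries. Of the 132 members, 16 (12.1%) had under 50 counts in it, 2 had under 10 and 0 had none. The rule asked for 50 counts in every library but this one, so members near that limit can fall under it by the choice alone. Among the protein-coding genes of the same rule, 2.40% had under 50 counts there, among 84 antisense rows 22.6%, among 89 processed transcripts 19.1% and among 72 rows of the biotype TEC, transcripts awaiting experimental evidence, 34.7%. These sets were chosen by the same rule but were not matched for count level. The 16 members had 51 to 143 counts in Ctrl shRNA replicates 1 and 3, and 13 of them averaged under 100 counts there. In CPM, 6 of the 16 were below 0.5 times the mean of the other controls and 10 were at 0.5 times or above.

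The 6 lowest ratios belonged to members without a known role. 2810455O05Rik had 116, 8 and 71 counts in Ctrl shRNA replicates 1, 2 and 3 and 94, 99 and 117 in the knockdown, and its ratio of CPM in replicate 2 to the mean of replicates 1 and 3 was 0.13. Gm12349 had 53, 6 and 59 and 71, 65 and 52 counts, with a ratio of 0.161. In the other 5 libraries, the lowest counts of these members were 71 and 52. The ratio was 0.322 for Gm26694, 0.408 for 4632404H12Rik, 0.423 for AI480526 and 0.434 for 2610037D02Rik. A low control raises the fold change by construction, and the log2 fold change of 2810455O05Rik was 0.62 with the replicate and 0.14 without it.

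After TMM scaling, 48 members (36.4%) were below both other controls in replicate 2 and 61 (46.2%) were above both, and the median ratio was 1.06. The protein-coding genes had 49.4% below and 38.2% above, with a median ratio of 0.958. Library size alone lowers every gene in that library by a common factor, and 69.7% of the members and 80.2% of the protein-coding genes were then below both controls, with median ratios of 0.702 and 0.637. More members lay above 2 times the other controls (15) than below 0.5 times (8). AW112010, a transcript induced in immune cells and named here after its values were seen, had the highest ratio, 7.82, with 4.46, 47.9 and 7.81 CPM in the controls and 5.38, 5.24 and 6.37 CPM in the knockdown.

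Ranked by their level per length in the knockdown, which shares no library with the ratio, the lowest 44 members had a median ratio of 0.949, with 11 under 50 counts in replicate 2. For the highest 44 the median ratio was 1.10 and 0 were under 50. Across members, the ratio and gene length had a Spearman rho of -0.15 (132 genes of the same libraries), and across protein-coding genes of -0.28. Members under 1 kb had a median ratio of 1.07 (16 genes), whereas protein-coding genes under 1 kb had 3.71 (196 genes), a gap given as a description without a test.

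**Figure D3:**
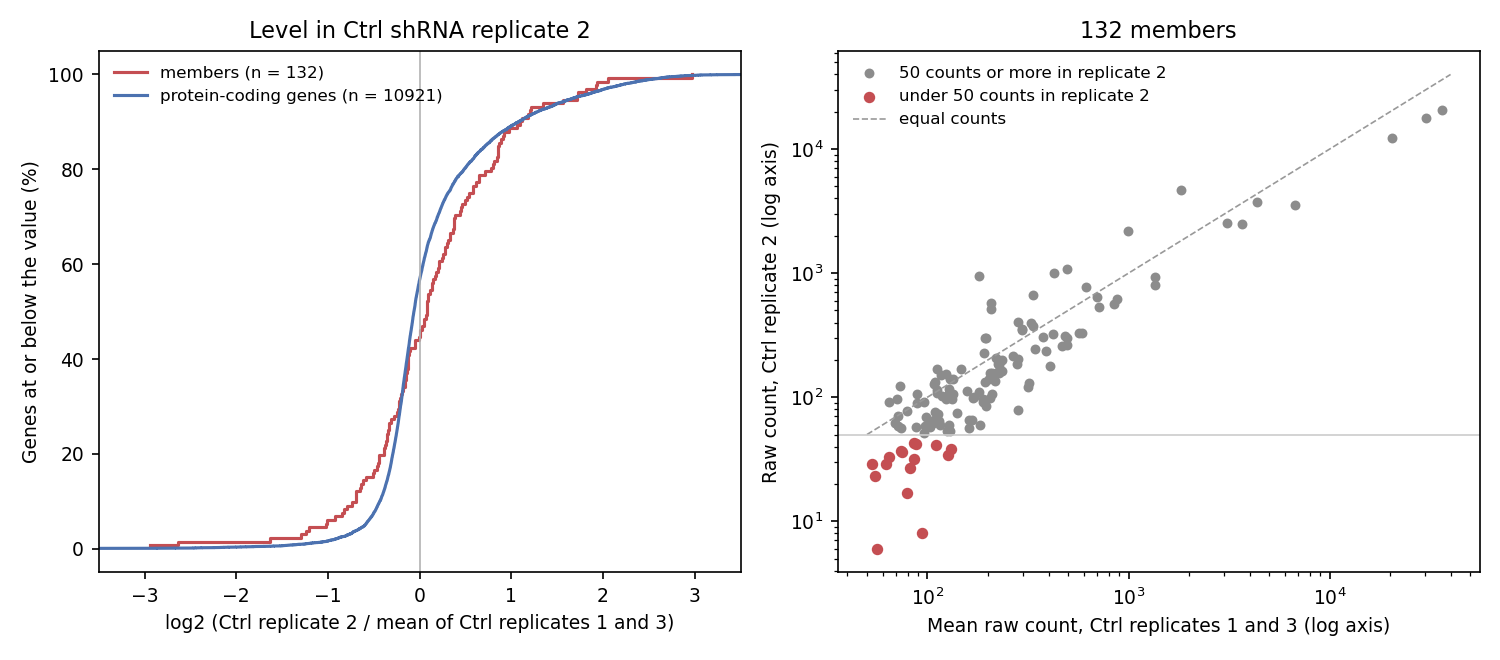
Left, the share of genes (y axis, %) at or below a given log2 ratio of CPM in Ctrl shRNA replicate 2 to the mean of replicates 1 and 3 (x axis), for 132 members and 10921 protein-coding genes of the same count rule. Right, raw counts of the members in replicate 2 (y axis) against the mean of replicates 1 and 3 (x axis) on log axes, with the 16 under 50 counts in red. The middle 50% of members span -0.34 to 0.55 and that of the coding genes -0.25 to 0.31, and the 16 lie at the low end of the x axis.

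Per length, measured as CPM per kb of gene length, the members spanned 0.388 to 134.5 with a median of 2.61. Malat1 was the highest, at 139 ± 8.58 (SD, n = 3) in the controls and 129.6 ± 20.4 in the knockdown. Gm26809, next in order, was at 70.6 ± 9.04 and 127 ± 9.19, so the knockdown level was within the spread of that of Malat1. Gm26917 was at 33.7 ± 6.75 and 104 ± 109, with knockdown replicate 2 alone high, at 115, 765 and 155 CPM in the knockdown against 86.6, 129 and 121 CPM in the controls. Its log2 fold change was 1.62 ± 0.73 (SE) (adjusted p = 0.359) and 0.27 without that library. Xist was at 64.3 ± 6.60 and 60.2 ± 6.90, Gm10076 at 76.1 ± 57.3 and 17.8 ± 5.29, and Gm12840 at 29.7 ± 2.89 and 48.5 ± 4.96. The controls of Gm10076 spread so widely that its place among these neighbours is not fixed. In raw counts, Xist, Malat1 and Neat1 together held 48.3 to 65.3% of all counts of the members.

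**Figure D4:**
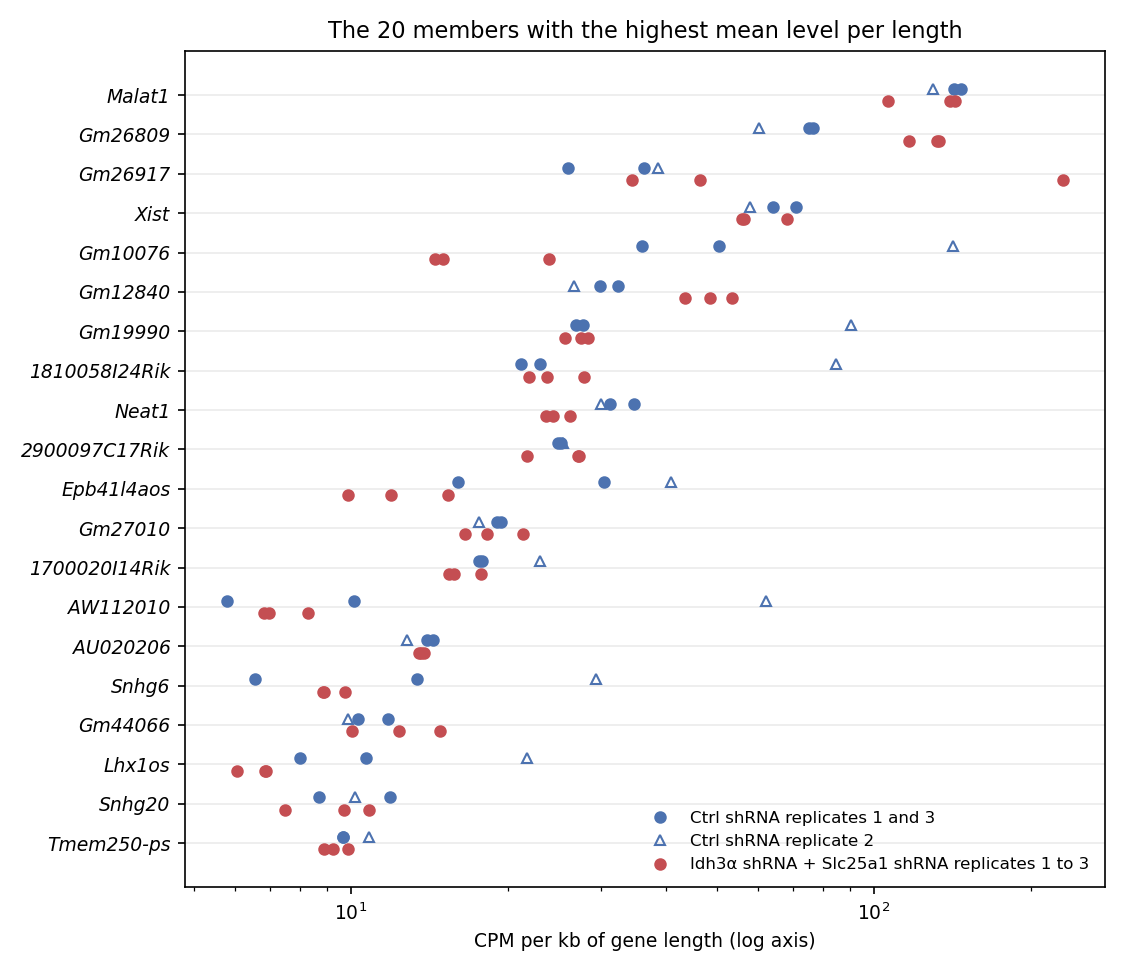
CPM per kb of gene length (x axis, log axis) in each sample for the 20 members with the highest mean level. Gm26809 and Gm12840 are higher in all knockdown libraries, Gm26917 is high in knockdown replicate 2 alone, and the open triangles of Ctrl shRNA replicate 2 lie far to the right for Gm10076 and AW112010.

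Nuclear and chromatin-associated RNAs were described with a list of 13 genes, of which 9 were tested and 5 were members. Beside Neat1, 0 genes of the list were called in either edgeR fit. Malat1 was at 1022, 907 and 992 CPM in the controls and 974, 741 and 999.6 CPM in the knockdown (log2 fold change -0.11 ± 0.15 (SE), adjusted p = 0.732). Xist was at 1275, 1038 and 1150 and 1005, 1012 and 1223 CPM (log2 fold change -0.10 ± 0.14 (SE), adjusted p = 0.743). The sign for both turned to above 0 under library size alone (0.05 and 0.06), and that of Malat1 also without knockdown replicate 2 (0.02). Jpx, an activator of Xist, was at 3.29, 8.50 and 4.22 and 4.27, 3.92 and 4.38 CPM, with replicate 2 above all other libraries, and Ftx, from the same X-inactivation region, was at 5.56, 6.83 and 9.10 and 6.25, 6.46 and 6.07 CPM. Of the 9, 6 were below both other controls in Ctrl shRNA replicate 2, at a median ratio of 0.909. Below both were 36.4% of all members and 49.4% of protein-coding genes of the count rule.

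Hosts of snoRNAs were mostly high in that library after TMM scaling. Of 21 listed hosts, 15 were tested, 4 of them members, and 12 of the 15 were above both other controls in Ctrl shRNA replicate 2, at a median ratio of 2.01. The share above both was 46.2% of all members, 50.6% of processed transcripts and 38.2% of protein-coding genes of the count rule. Among the members, Snhg6 was at 7.53, 33.8 and 15.3 CPM in the controls and 11.2, 10.1 and 10.2 CPM in the knockdown. Epb41l4aos was at 6.88, 17.6 and 13.1 and 6.59, 4.25 and 5.13 CPM, Snhg12 at 6.04, 9.16 and 9.34 and 11.3, 8.97 and 8.90 CPM, and Snhg20 at 24.3, 28.5 and 33.2 and 30.2, 20.9 and 27.1 CPM. The median log2 fold change of the 15 hosts was -0.50 with all samples and -0.00 without the replicate, with 4 and 7 of them above 0. The 5 members with an annotated snoRNA gene inside them had a median of 0.25 with all samples and 0.29 without the replicate, and a median ratio of 1.3. None of the 4 members passed the test, with an adjusted p without the replicate of 0.812 for Snhg6, 0.134 for Epb41l4aos, 0.38 for Snhg12 and 0.668 for Snhg20. The hosts called higher without it were Snhg17 and Snhg4, which carry the biotype processed transcript and are no members, at an adjusted p of 0.0464 and 0.0341. Gas5, another host outside the rule, was at 58.4, 361 and 125 CPM in the controls and 64.6, 61.3 and 68.8 CPM in the knockdown.

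Of 11 listed hosts of microRNAs, 5 were tested and 2 were members. All 5 were above both other controls in Ctrl shRNA replicate 2, at a median ratio of 1.26, whereas the 11 members with an annotated microRNA gene inside them had a median ratio of 0.992. Above both were 46.2% of all members and 50.6% of processed transcripts of the count rule. Mir17hg was the 1 host called without the replicate. Mir155hg, whose microRNA is induced in inflammation, was at 10.8, 20.1 and 11.3 CPM in the controls and 11.5, 10.7 and 9.14 CPM in the knockdown, and its log2 fold change went from -0.43 ± 0.27 (SE) to -0.09 ± 0.13 (SE) without replicate 2 (adjusted p = 0.437 and 0.737).

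Of 7 growth-linked and p53-linked genes listed, 4 were tested and 3 were members, and none was called in either fit. Beside Pvt1, 2900097C17Rik, the mouse Norad, which binds Pumilio proteins, was at 124, 125 and 122 CPM in the controls and 133, 106 and 134 CPM in the knockdown. It shares 2537 bases at 99.2% identity with another member, Gm7292, so their counts are uncertain. Lncpint, a target of p53, was at 2.52, 4.66 and 1.78 and 3.53, 2.93 and 3.0 CPM, and its log2 fold change went from 0.09 ± 0.37 (SE) to 0.54 ± 0.23 (SE) without replicate 2. Among 28 other studied long noncoding RNAs, 8 were tested and 0 called in either fit, with 1700020I14Rik, known as Cyrano, the only member, at 146, 191 and 148 and 128, 131 and 147 CPM. Among 4 structural or catalytic RNAs, 1 was tested, Rn7sk, and it was not called.

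**Figure D5:**
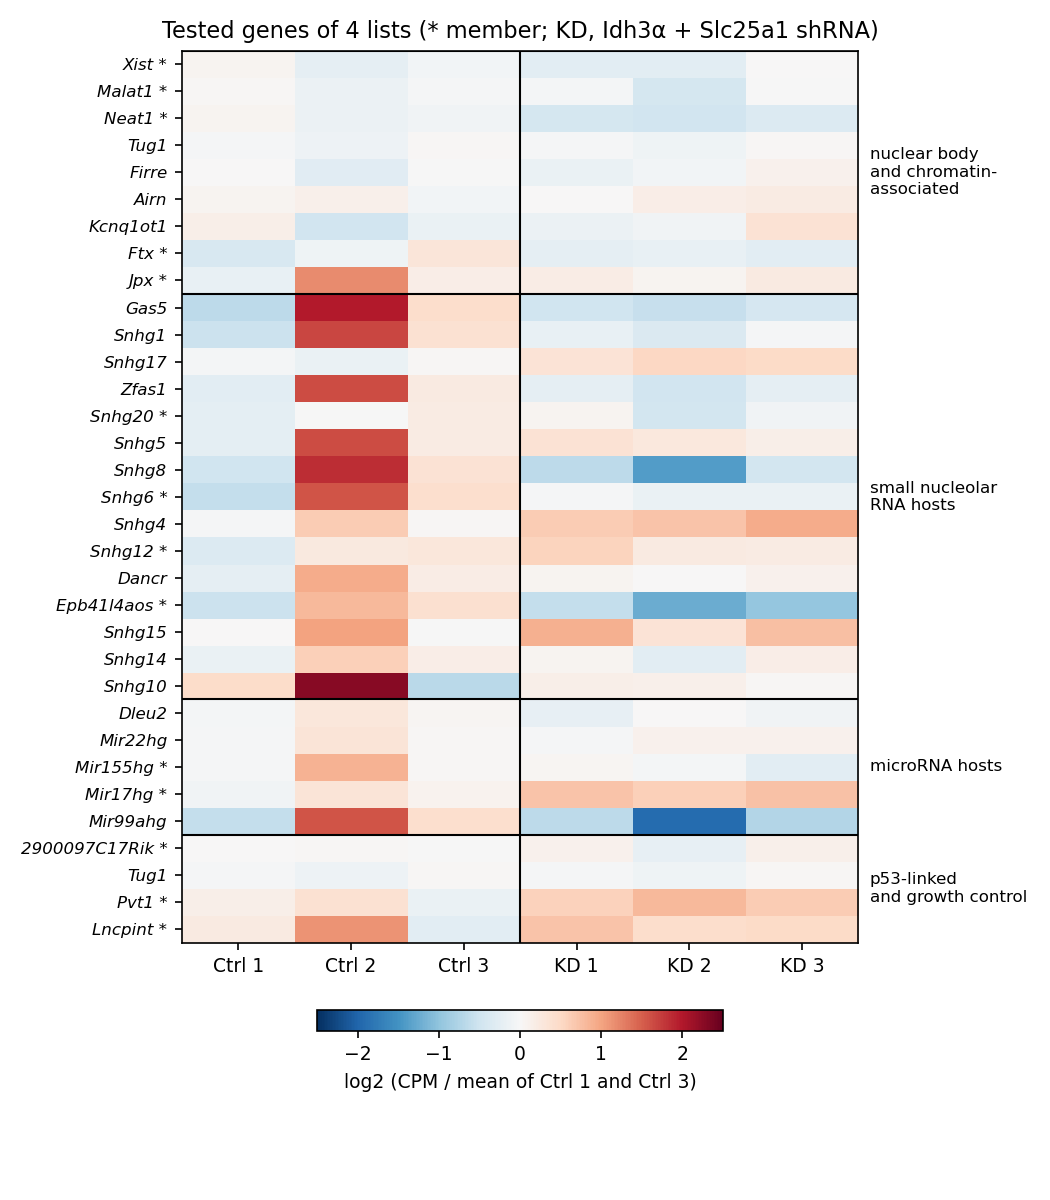
Log2 ratio of CPM to the mean of Ctrl shRNA replicates 1 and 3 (colour) in each sample for the tested genes of 4 lists, members marked with an asterisk. The column of Ctrl shRNA replicate 2 is red for most snoRNA hosts, Mir155hg and Mir99ahg, paler for the other microRNA hosts and near white or pale blue for the nuclear RNAs other than Jpx, and Mir17hg and Pvt1 are red in all 3 knockdown columns.

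Position was not used by the rule. All 132 members were found in the GENCODE M21 annotation of GRCm38, 128 with identical coordinates, and they had a median length of 2651.5 bases (384 to 20771). With small RNA genes left out, another gene was overlapped by 58 members, a coding gene by 27 and another exon by 44. In 5 members there was a snoRNA gene and in 11 a microRNA gene, and 26 had a single exon block. In 15 the start lay within 1000 bases of the divergent start of the nearest coding gene. Of the 5 members called without Ctrl shRNA replicate 2, 1 overlapped another gene by that count, Gm26809. By sequence, 54 members held at least 100 bases at 95% identity or more in a transcript of another gene, with stretches between overlapping genes left out and nested small RNA genes included, and all 5 called members were among these 54. For Neat1 and Mir17hg the best match was a short RNA gene within them, Gm27533 and Mir20a.

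The nearest coding gene was tested for 110 members, 104 distinct genes, and the Pearson correlation of the log2 fold changes was 0.001 with all samples and -0.02 without Ctrl shRNA replicate 2 (Spearman rho 0.13 and 0.09), as a description over genes that share the same libraries. In 59 of the 110 pairs the sign was the same without the replicate. The neighbours of the called members with a tested neighbour were Lsm8, given above, and Dmap1 beside Gm12840, Spry2 beside Gm10076 and Frmd8 beside Neat1, and none passed the test in either edgeR fit (adjusted p without the replicate of 0.14, 0.292, 0.752 and 0.888). For the 15 divergent pairs the Pearson correlation was -0.30 and the Spearman rho 0.46 without the replicate, with 9 of the same sign. Neighbours called without the replicate were 4 of the 104, with 1.11% of all genes tested called higher and 0.675% lower in that fit. Higher were Myc beside Pvt1, Cp beside 4632415L05Rik and Mex3a beside Gm37584, lower was Chrd beside CT010490.3, and none of the 4 members beside them was called.

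At the threshold of the rule, Lncpint, F420014N23Rik and Gm49064 were just inside, each with a lowest count of 51 in the 5 libraries. D730003I15Rik was nearest outside, with 48, followed by rows with 46, A430046D13Rik among them. Of the lincRNA rows outside the rule, 13 reached 50 counts in Ctrl shRNA replicates 1 and 3 but not in every knockdown library, and 12 did the reverse.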

How the data were processed

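RNA-seq counts of 6 MLE12 samples were used, 3 per group, with groups taken from the labels. The authors deposited raw counts per gene, summing to 27273502 to 28535653 per library, with gene coordinates and biotypes. The authors also deposited FPKM values, which divide those counts by gene length and library size. The submitters' processing notes name HISAT2 2.0.5, StringTie 1.3.3b, featureCounts 1.5.0-p3 and mm10, without role or order, and the annotation release and the use of strand are not given in the sources used here.

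Genes were filtered with filterByExpr, scaled by TMM and tested with edgeR 4.0.16 (glmQLFit and glmQLFTest, R 4.3.3) on all genes, with Benjamini-Hochberg adjustment and a threshold of 0.05. Fold changes are knockdown over control. The fit was repeated without Ctrl shRNA replicate 2. DESeq2 1.42.0, limma 3.58.1 on log2(FPKM + 1) and log2(FPKM + 0.1), other scalings and filters, and leaving out each sample were alternatives. Ranges of adjusted p over the alternatives also include a replicate block and the fits added after seeing the data. Those added fits were DESeq2 without Ctrl shRNA replicate 2 and limma with sample quality weights. Replicates were checked for duplicates, and none was found. The steps were tested on simulated data with changes put into the counts. With all 6 samples, edgeR recovered 8.96% of 1.5-fold, 44.8% of 2-fold and 97% of 4-fold changes. Without Ctrl shRNA replicate 2 it recovered 68.7%, 95.5% and 100%, so the fit of all samples would miss many changes of 2-fold or less. Shared sequence was searched with BLAST 2.17.0 in GENCODE M21 transcripts, and positions came from its annotation. microRNA sequences are from RefSeq.

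The members, lists and tests were chosen with earlier results of these data known, and Mirt1 and Mirt2 were moved from the microRNA hosts to the other studied RNAs after their values were seen, since they host no microRNA. Named members were those past the threshold in either edgeR fit, the 6 highest and 6 lowest log2 fold changes with groups apart, the 6 highest levels per length, list members, the 6 lowest ratios in Ctrl shRNA replicate 2, those nearest the count limit, and coding neighbours of called members. Other names, such as AW112010, Gm7292, Myc and the neighbours of uncalled members, were chosen after their values were seen.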

Additional observations from a re-analysis of the deposited data

How the results depend on the processing

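The number of members called depended on Ctrl shRNA replicate 2 and on the tool. With edgeR and all samples it was 0 higher and 0 lower, and leaving out each replicate in turn gave 0 to 3 higher and 0 to 2 lower, with calls only when Ctrl shRNA replicate 2 was left out. DESeq2 gave 4 and 1, an unadjusted p 6 and 8, and, both chosen after seeing the data, DESeq2 without Ctrl shRNA replicate 2 gave 5 and 4 and limma with sample quality weights 7 and 8. The cause was not tested. RLE size factors, library size alone, no count filter, a minimum of 10 counts in every sample and limma on FPKM gave 0 and 0. The median log2 fold change of the members was 0.13 with library size alone, -0.0225 with quality weights, -0.0198 with a member limit of 100 counts, and -0.109 to -0.0282 with a replicate left out. Library size alone lowers all genes of Ctrl shRNA replicate 2 together, and the share below both other controls went from 36.4 to 69.7% for members and from 49.4 to 80.2% for protein-coding genes. Both targets passed the threshold under the same settings, with a log2 fold change for Idh3a of -0.84 in DESeq2, -0.59 in DESeq2 without the replicate, -0.67 with quality weights, -0.85 at an unadjusted p and -0.997 to -0.60 with a replicate left out. For Slc25a1 these were -0.62, -0.66, -0.68, -0.62 and -0.66 to -0.57. Of 32 named members, 28 kept their sign under each scaling, and Malat1, Xist, 2900097C17Rik and Snhg20 did not. Same-numbered samples deviated with correlations of -0.25, -0.19 and 0.01. With 3 samples per group these values cannot decide whether the numbers pair the samples. A replicate block in edgeR gave 0 calls higher and 0 lower, a median of -0.06 and an adjusted p for Idh3a of 0.576. Members near 50 counts had the least depth behind their values.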
